A study of Mus musculus with 9 samples.

Results

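The Myc, Mxd and MondoA network was described in BV2 cells, an immortalized mouse microglial line, under oxygen glucose deprivation (OGD) and under OGD with A-485, an inhibitor of the histone acetyltransferase P300. Its 10 members, Myc, Max, Mnt, Mxd1, Mxd4, Mxi1, Mlx, Mlxip, Txnip and Arrdc4, were found by gene name among the 54532 genes of the expression table, and all 10 were among the 16123 genes, averaging 0.2 FPKM or more, that entered the test. FPKM is the number of fragments per kilobase of gene, scaled for the size of the library. The gene length used need not be that of the RNA made in these cells. Levels of different genes are therefore set side by side only roughly. The bulk RNA of 9 libraries was sequenced, 3 for each of the groups Ctrl (control), OGD and OGD_A_485 (OGD + A-485). Control cells were kept in medium with 10% serum. OGD cells had low-glucose medium with 4% serum in a chamber at 4% oxygen, so glucose, oxygen and serum differed together and their parts cannot be told apart. The experiments that preceded the transcriptome used 24 h of OGD and 50 µM A-485, and neither was restated for the RNA libraries. No group received A-485 without OGD, and nothing said that the 3 libraries of a group came from separate cultures, so p-values measure the spread between these libraries, which may be technical.

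Max is the common partner of a family of transcription factors that bind the E-box, the letters CACGTG in DNA. Myc with Max activates genes of growth and ribosome production, while the Mxd proteins, Mxi1 and Mnt compete for Max and bring in Sin3 corepressors. In a parallel branch Mlx pairs with MondoA, the product of Mlxip, which enters the nucleus when glucose-6-phosphate accumulates and activates Txnip and Arrdc4, and both of these α-arrestins hold back glucose uptake. Mlx can also pair with Mnt, Mxd1 and Mxd4, and so links the branches.

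The start regions of both glucose-dependent outputs are shown because they hold the kind of element through which Myc and MondoA family dimers bind DNA. They are RefSeq sequences of mouse build GRCm38.p6, on the strand of the gene, from 250 bases before the start to the base before it, at chr3:96557707-96557956 (plus strand) for Txnip and chr7:68749239-68749488 (minus strand) for Arrdc4. Capitals mark a pair of E-box-like letters 5 bases apart in Txnip and an E-box in Arrdc4.
Txnip: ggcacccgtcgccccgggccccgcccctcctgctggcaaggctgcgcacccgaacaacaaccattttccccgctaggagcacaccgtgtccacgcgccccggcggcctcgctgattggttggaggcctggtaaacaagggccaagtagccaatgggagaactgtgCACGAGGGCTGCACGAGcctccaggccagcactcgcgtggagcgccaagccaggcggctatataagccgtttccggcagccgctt
Arrdc4: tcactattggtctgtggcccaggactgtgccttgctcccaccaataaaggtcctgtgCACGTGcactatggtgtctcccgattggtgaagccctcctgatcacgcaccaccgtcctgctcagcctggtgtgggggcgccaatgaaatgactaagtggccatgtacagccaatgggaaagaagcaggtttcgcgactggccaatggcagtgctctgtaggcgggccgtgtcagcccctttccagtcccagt

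Windows of 250 bases before to 50 bases after a start matched 9 of the 10 members, Myc being the other, and were searched on both strands. The 9 members had 11 windows, and below members are counted as genes while the background is a share of windows. The E-box CACGTG was present in 5 members (Max, Mnt, Mxd4, Mlx and Arrdc4), and in 7.15% of all 32851 windows. In Max it lay across the start, at positions -3 to 3. The bases after the start of that Max window were not found in a transcript of the gene. The pair of E-box-like letters, each CACGNG or its reverse complement CNCGTG with 5 bases between them, was present in Txnip alone among the members, 85 to 69 bases before the start at chr3:96557872-96557888, and in 27 windows in all, 0.0822%. CACGTG is a special case of these letters, so the searches overlap. The CCAAT box, CCAAT or ATTGG, was in 6 members, with 6 copies in Arrdc4 and 2 in Txnip, and in 37.4% of all windows. A match of letters is a description and not a bound site.

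The other network genes with an E-box ahead of the start are shown over 30 bases, with the E-box in capitals, since Mnt and Mxd4 rose with A-485 while Mlx was not called in any comparison. They lie at chr11:74830789-74830818 (plus strand) for Mnt, chr5:34187912-34187941 (minus strand) for Mxd4 and chr11:101087238-101087267 (plus strand) for Mlx.
Mnt: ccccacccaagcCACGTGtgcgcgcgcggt
Mxd4: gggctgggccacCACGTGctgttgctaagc
Mlx: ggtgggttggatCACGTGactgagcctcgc

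Each library held between 12593250 and 16091038 reads on genes, and the mitochondrial genes took 1.82 to 2.20% of them in control libraries, 1.14 to 1.28% under OGD and 1.66 to 2.01% once A-485 was added. The label of a microglial line was checked on 10 markers of microglia and macrophages, all of which had reads. Their summed level was 437 to 453 FPKM in control libraries, 501 to 533 FPKM under OGD and 989.9 to 1015 FPKM once A-485 was added, while P2ry12, a marker of resting microglia in tissue, had at most 12 reads. Cd68 alone stood at 277.5, 306 and 444.9 FPKM as means of control, OGD and OGD + A-485. In the same order, Aif1 stood at 0.613, 0.889 and 2.57 FPKM and Tmem119 at 1.402, 1.335 and 1.326 FPKM. Csf1r stood at 24.2, 44.6 and 130.6 FPKM, and Tyrobp at 73.1, 80.0 and 242.8 FPKM. By the call defined below, 4 of the 9 markers tested rose with OGD and 7 with A-485 added. Of all genes 11.2% and 12.2% rose, and 0 of these markers fell in either comparison. Neuron markers summed to at most 0.0337 FPKM and astrocyte markers to at most 0.155 FPKM, with Aqp4 at 0. Among oligodendrocyte markers, Mbp stood at 1.01 to 1.05 FPKM in control libraries, 1.05 to 1.12 FPKM under OGD and 0.588 to 0.888 FPKM once A-485 was added, and Mog and Mag were at 0. The part of the marker and mitochondrial shifts in the results that follow was not tested. In bulk RNA, fewer cells that express a gene and less of its RNA per cell cannot be told apart.

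A gene was called where limma gave p under 0.01 and a log2 fold change beyond 0.5 in size, the thresholds of the study. The study set them on DESeq2 results and not on limma fits of FPKM, so its calls can differ from these. With OGD, 4 of the 10 members rose (Myc, Mxd1, Mxd4 and Txnip) and 0 fell, where 11.2% of all genes tested rose and 9.81% fell. With A-485 added to OGD, 4 members rose (Mnt, Mxd4, Txnip and Arrdc4), where 12.2% of all genes rose, and 2 fell (Mxd1 and Mxi1), where 13.4% fell. Against control, OGD + A-485 had 5 members higher (Myc, Mnt, Mxd4, Txnip and Arrdc4), beside 17.0% of all genes, and 1 lower (Mxi1), beside 16.6%. Either way, 4, 6 and 6 of the 10 were called, beside 21.0%, 25.7% and 33.7% of all genes, and 8, 10 and 8 had an adjusted p under 0.05 in limma, beside 45.3%, 49.8% and 56.6%. The median log2 fold change over the members was 0.39, 0.20 and 0.30 in these comparisons, and over all genes tested 0.01, 0.01 and 0.02. The comparisons share their OGD or control libraries and are not independent of each other. The libraries of both groups did not overlap for 8, 10 and 8 members, which stands beside 55.4%, 56.8% and 63.8% of all genes.

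**Figure D1:**
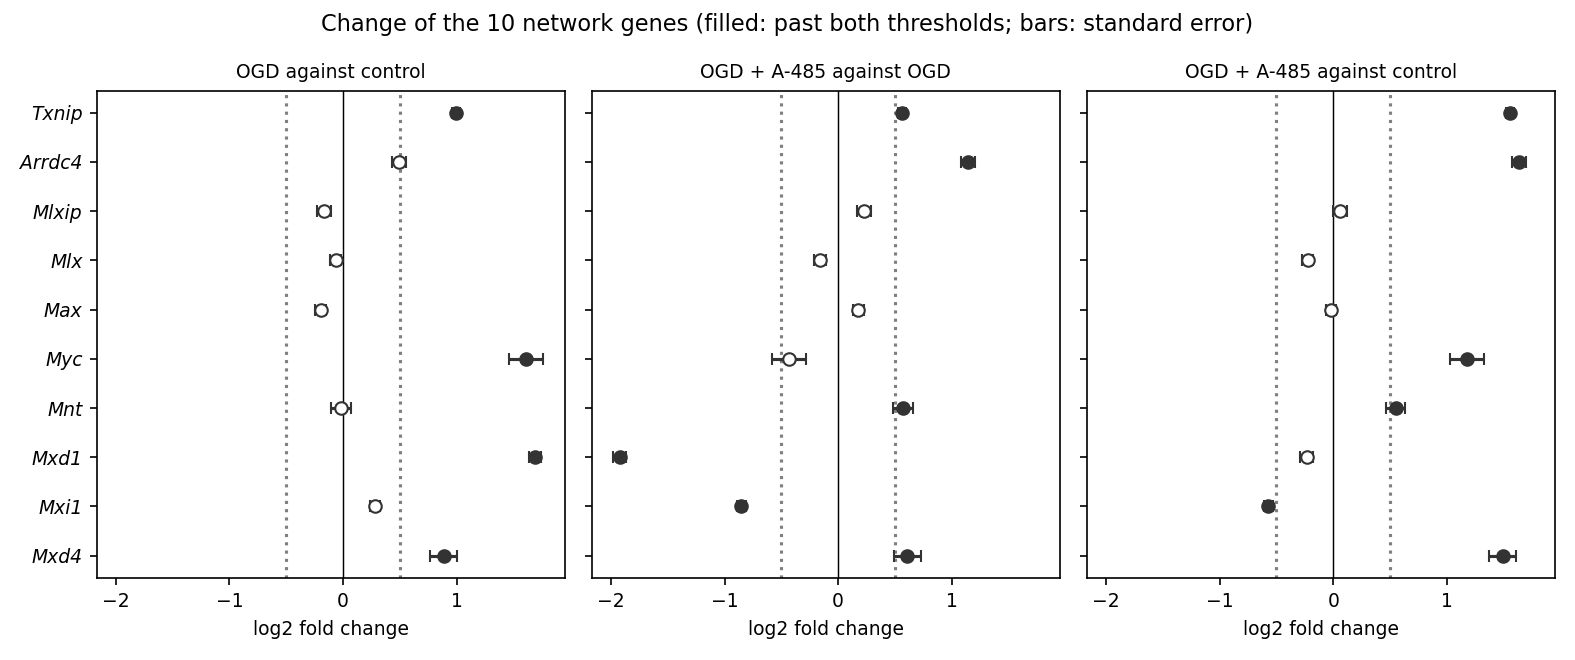
Log2 fold changes of the 10 members on the log2(FPKM + 0.1) scale in the comparisons, each point a limma estimate with its standard error, with the threshold of 0.5 in size marked. Mxd1 is at 1.69 with OGD and at -1.92 with A-485 added, while Txnip and Mxd4 lie above 0.5 in every comparison.

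Txnip and Arrdc4, the glucose-dependent outputs, had their highest levels with A-485 on top of OGD, and Txnip had also risen with OGD alone. Txnip encodes an α-arrestin that binds thioredoxin and promotes the removal of glucose transporters from the cell surface. Its gene lies at chr3:96557957-96561883 on the plus strand (build GRCm38). Txnip stood at 65.0, 64.6 and 66.8 FPKM in control, 128, 134 and 129.9 FPKM in OGD, and 191, 187 and 199 FPKM in OGD + A-485. No library of any group overlapped another group, and the levels rose in the order control, OGD, OGD + A-485. The group means were 65.5 ± 1.15, 130.5 ± 3.01 and 192 ± 5.94 FPKM (SD, n = 3), from 2713 to 9235 reads per library. In limma, Txnip rose by 0.99 on the log2 scale with OGD (SE 0.04, adjusted p = 3.73e-07), a fold of 1.99. It rose by a further 0.56 with A-485 (SE 0.04, adjusted p = 3.56e-06), a fold of 1.47. This second step was just above the threshold of size, and it lay under it with quantile normalization (0.42), library totals (0.49) and limma-voom (0.49). The antisense gene Gm15441 overlaps Txnip at a mean of 0.690 FPKM, and whether the counting used strand was not given in the sources used here.

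Arrdc4 is the closest relative of Txnip among the α-arrestins and shares its effect on glucose uptake. Its gene lies at chr7:68736995-68749241 on the minus strand. Arrdc4 stood at 7.47, 7.26 and 6.77 FPKM in control, 9.76, 10.2 and 10.4 FPKM in OGD, and 23.5, 20.7 and 23.3 FPKM in OGD + A-485. The groups again did not overlap and came in the same order as for Txnip. Arrdc4 had a log2 fold change of 0.49 with OGD (SE 0.06, adjusted p = 0.000222 in limma), just under the size needed for a call. With 1 library left out in turn this value ran from 0.453 to 0.522, and it passed the threshold without Ctrl replicate 1 (0.522), without Ctrl replicate 2 (0.502) or without OGD replicate 1 (0.518). With A-485 added, Arrdc4 rose by 1.14 (SE 0.06, adjusted p = 1.26e-06), a fold of 2.21, and against control the rise was 3.11-fold.

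The outputs therefore did not keep a fixed ratio to each other. The FPKM of Txnip was 9.15 ± 0.618 times that of Arrdc4 in control, 12.9 ± 0.318 times in OGD and 8.56 ± 0.458 times in OGD + A-485 (SD, n = 3). The lowest OGD ratio, 12.5, lay above the highest ratio of the other groups, 9.86. The ratios of control, 8.71 to 9.86, overlapped those of OGD + A-485, 8.13 to 9.04.

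**Figure D2:**
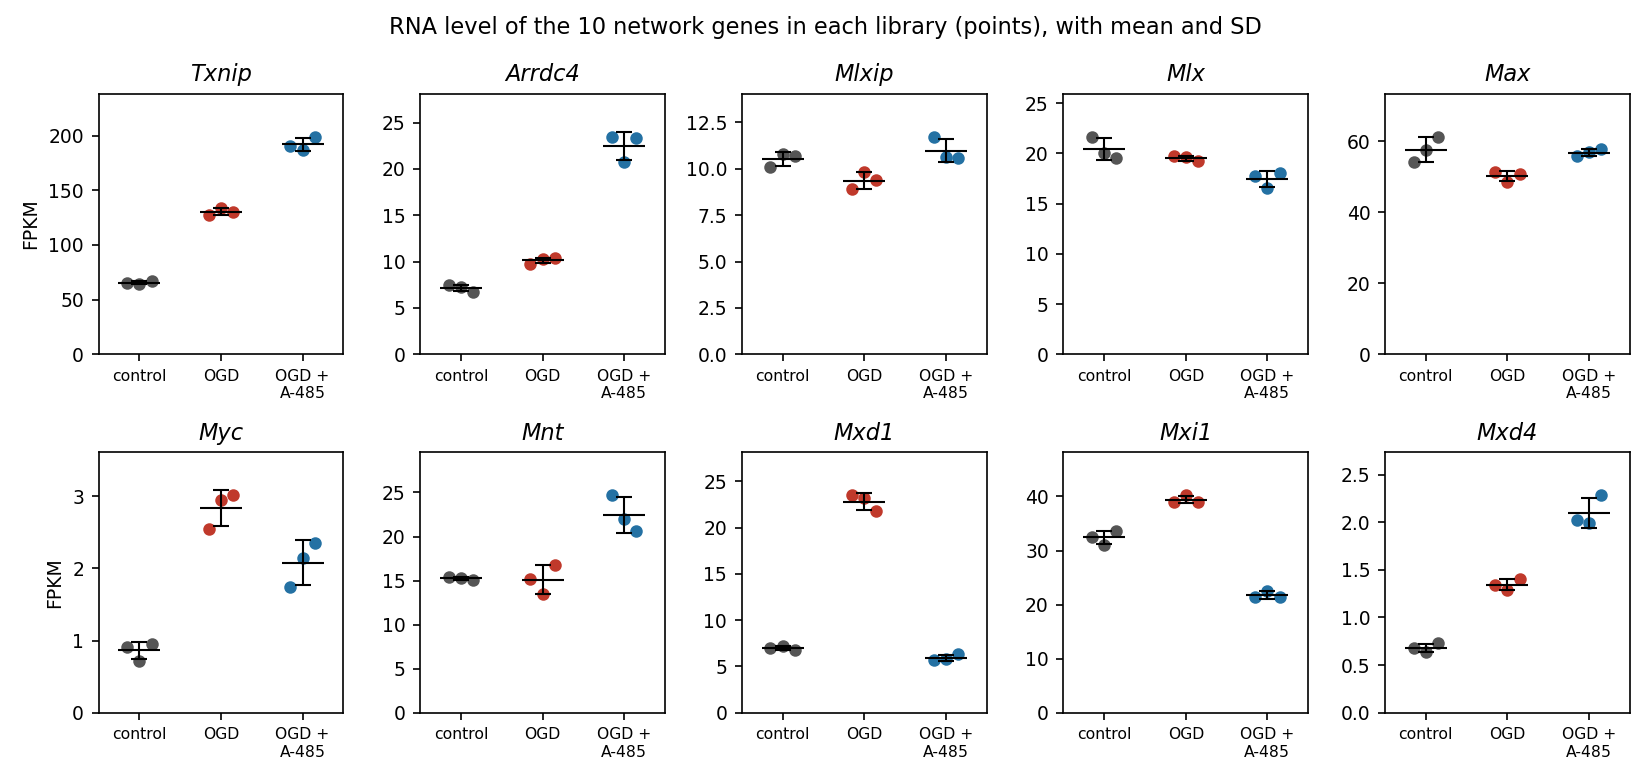
RNA level in FPKM of each network gene in each of the 9 libraries (points), with the mean and SD of each group and every vertical axis starting at 0. Txnip and Mxd4 step up from group to group, Mxd1 is high in OGD alone with 21.8 to 23.5 FPKM, and Max, Mlx and Mlxip stay close to one level.

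The glucose sensor itself was not called in any comparison. Mlxip encodes MondoA, and its gene lies at chr5:123394798-123457932 on the plus strand. Mlxip stood at 10.1, 10.8 and 10.7 FPKM in control, 8.90, 9.82 and 9.38 FPKM in OGD, and 11.7, 10.6 and 10.6 FPKM in OGD + A-485. The OGD libraries were the lowest, and the other groups overlapped. Its log2 fold changes were -0.17 with OGD (adjusted p = 0.0467 in limma) and 0.23 with A-485 added (adjusted p = 0.0110), both too small for a call.

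Mlx, the dimer partner of MondoA, has its gene at chr11:101087277-101092207 on the plus strand. Mlx stood at 21.6, 20.1 and 19.6 FPKM in control, 19.7, 19.6 and 19.2 FPKM in OGD, and 17.8, 16.6 and 18.1 FPKM in OGD + A-485. Control and OGD overlapped, and all libraries with A-485 were lower than the rest. The log2 fold changes of Mlx were -0.07 with OGD (adjusted p = 0.328 in limma) and -0.16 with A-485 added (adjusted p = 0.0261), and Mlx was not called. Mlx overlaps Psmc3ip on the other strand, a gene at a mean of 4.45 FPKM. The RNA of the sensor pair thus differed by at most 0.23 on the log2 scale between any groups, while that of its outputs differed by up to 1.55 (Txnip) and 1.64 (Arrdc4).

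Mlxipl, which encodes ChREBP, the relative of MondoA in liver and fat, had 0 to 11 reads per library and was not tested. Mycn had 0 reads in all libraries, which allows up to 3 reads in a library by counting error alone, and Mycl had at most 1 read. Mga, a large Max partner that represses germ cell genes, stood at 10.9, 10.2 and 11.1 FPKM as group means and was not called. Mxd3, an Mxd protein of dividing cells, stood at 1.81 ± 0.264, 1.59 ± 0.369 and 0.852 ± 0.123 FPKM (SD, n = 3) from 27 to 78 reads per library, and fell by 0.81 on the log2 scale with A-485 added (adjusted p = 0.00860 in limma). This call was lost without OGD replicate 1, without OGD replicate 3 or without OGD_A_485 replicate 2, with a pseudocount of 1 and with the median of the 50 neighbouring genes on the chromosome removed.

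Myc and Mxd4 had the lowest levels of the members in every group, and Myc rose with OGD. Myc drives growth, ribosome production and metabolism together with Max, and its gene lies at chr15:61985391-61990374 on the plus strand. Myc stood at 0.909, 0.723 and 0.955 FPKM in control, 2.54, 2.94 and 3.01 FPKM in OGD, and 1.74, 2.14 and 2.35 FPKM in OGD + A-485. The groups did not overlap, and OGD was highest. These levels rest on 28 to 42 reads in control libraries, 88 to 115 under OGD and 69 to 92 once A-485 was added, so counting alone leaves a wide error on each library. Myc rose by 1.61 on the log2 scale with OGD (SE 0.15, adjusted p = 4.06e-05 in limma), a fold of 3.06. With A-485 added its log2 fold change was -0.44 (SE 0.15, adjusted p = 0.0387 in limma), which missed both thresholds. With limma-voom on the recovered reads the same difference was -0.52 and passed both thresholds. Against control, Myc in OGD + A-485 rose by 1.18 (adjusted p = 0.000147), a fold of 2.26.

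Max, the shared partner, lies at chr12:76937269-76962201 on the minus strand. Max stood at 54.3, 57.5 and 61.2 FPKM in control, 51.3, 48.5 and 50.8 FPKM in OGD, and 55.7, 56.9 and 57.8 FPKM in OGD + A-485. OGD was the lowest group, and the others overlapped. The log2 fold changes of Max were -0.20 with OGD (adjusted p = 0.00826 in limma), 0.18 with A-485 added (adjusted p = 0.0125) and -0.02 against control (adjusted p = 0.743), and none was a call. A gene of unassigned type on the same strand, Gm47218, overlaps Max at a mean of 3.26 FPKM.

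Among the repressors, which compete with Myc for Max, Mxd1 had the largest change with OGD and with A-485 added. Mxd1 accompanies the exit from the cell cycle and differentiation in many lineages, and its gene lies at chr6:86647042-86669161 on the minus strand. Mxd1 stood at 6.94, 7.25 and 6.82 FPKM in control, 23.5, 23.2 and 21.8 FPKM in OGD, and 5.75, 5.78 and 6.31 FPKM in OGD + A-485. OGD stood far above both other groups, and every library with A-485 was below every control library. Mxd1 rose by 1.69 on the log2 scale with OGD (SE 0.05, adjusted p = 2.39e-07 in limma), a fold of 3.23. With A-485 added it fell by 1.92 (SE 0.05, adjusted p = 4.30e-08), 3.79-fold lower. Against control the log2 fold change was -0.23 (adjusted p = 0.00534), too small for a call.

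Mxi1, also called Mxd2, had the highest level of the repressors in control and OGD, and its gene lies at chr19:53310506-53375810 on the plus strand. Mxi1 stood at 32.5, 31.1 and 33.6 FPKM in control, 39.0, 40.2 and 39.0 FPKM in OGD, and 21.5, 22.6 and 21.3 FPKM in OGD + A-485. The groups did not overlap, with OGD highest and OGD + A-485 lowest. Its log2 fold change with OGD, 0.28 (SE 0.04, adjusted p = 0.000530 in limma), was too small for a call. With A-485 added Mxi1 fell by 0.85 (SE 0.04, adjusted p = 7.03e-07), 1.80-fold lower, and against control it fell by 0.57 (adjusted p = 3.84e-06). The median of its 50 neighbouring genes on the chromosome had a log2 difference of -0.36 with A-485 added, and with that median removed the Mxi1 values were -0.495 and -0.119, neither a call.

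Mxd4, a repressor typical of differentiated cells, went the other way from Mxd1 and Mxi1 when A-485 was added. Its gene lies at chr5:34173883-34187720 on the minus strand. Mxd4 stood at 0.679, 0.637 and 0.728 FPKM in control, 1.34, 1.29 and 1.40 FPKM in OGD, and 2.03, 1.99 and 2.28 FPKM in OGD + A-485, from 77 to 279 reads per library. The groups did not overlap and came in the order of Txnip. Mxd4 rose by 0.89 with OGD (SE 0.12, adjusted p = 0.000333 in limma) and by a further 0.61 with A-485 (SE 0.12, adjusted p = 0.00252), and its fold over control was 2.81 at the end. With a pseudocount of 1, large beside these levels, both steps were under the threshold of size, at 0.478 and 0.403.

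Mnt is the broadly expressed repressor that opposes Myc in most cells, and its gene lies at chr11:74830920-74845725 on the plus strand. Mnt stood at 15.4, 15.3 and 15.1 FPKM in control, 15.1, 13.4 and 16.7 FPKM in OGD, and 24.7, 22.0 and 20.7 FPKM in OGD + A-485. Control lay inside the range of OGD, and all libraries with A-485 were above both. Mnt had a log2 fold change of -0.02 with OGD (SE 0.09, adjusted p = 0.879 in limma) and rose by 0.57 with A-485 added (SE 0.09, adjusted p = 0.000547), a fold of 1.48. Its rise was under the threshold of size without OGD replicate 2 (0.489), without OGD_A_485 replicate 1 (0.499) and with its neighbours' median removed (0.429). Against control it rose by 0.55 (adjusted p = 0.000521), and this value was 0.479 without OGD_A_485 replicate 1, 0.435 with library totals and 0.438 with limma-voom.

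These levels gave each group its own mix of RNA for the network members that pair with Max. The summed level of Myc, Mnt, Mxd1, Mxd4 and Mxi1 was 56.2 ± 1.11 FPKM in control, 81.5 ± 0.431 FPKM in OGD and 54.4 ± 1.36 FPKM in OGD + A-485 (SD, n = 3). The RNA of Max was 1.02 ± 0.0569, 0.616 ± 0.0157 and 1.04 ± 0.0449 times that sum, with OGD below every library of the other groups. Mga, at 10.9, 10.2 and 11.1 FPKM as group means, and Mxd3 are also partners of Max and were left out of the sum. Its ratio to Max and the shares below hold for the summed genes only. Mxd1 made up 12.5%, 28.0% and 10.9% of the sum in control, OGD and OGD + A-485, Mxi1 57.6%, 48.4% and 40.1%, and Mnt 27.1%, 18.5% and 41.2%. Mnt and Mxi1 were thus near to each other with A-485, where Mnt took 39.0 to 44.3% and Mxi1 38.6 to 41.5% of the sum over the libraries and their ranges overlapped. Myc itself was 1.53%, 3.47% and 3.83% of the sum. The FPKM of Mxd1 was 8.27 ± 1.54 times that of Myc in control, 8.12 ± 1.01 times in OGD and 2.90 ± 0.356 times in OGD + A-485. The rises with OGD given above, 3.23-fold for Mxd1 and 3.06-fold for Myc, are on the log2(FPKM + 0.1) scale. That scale understates low genes such as Myc, so these folds do not rank the genes. These are ratios of RNA, and the proteins were not measured here.

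**Figure D3:**
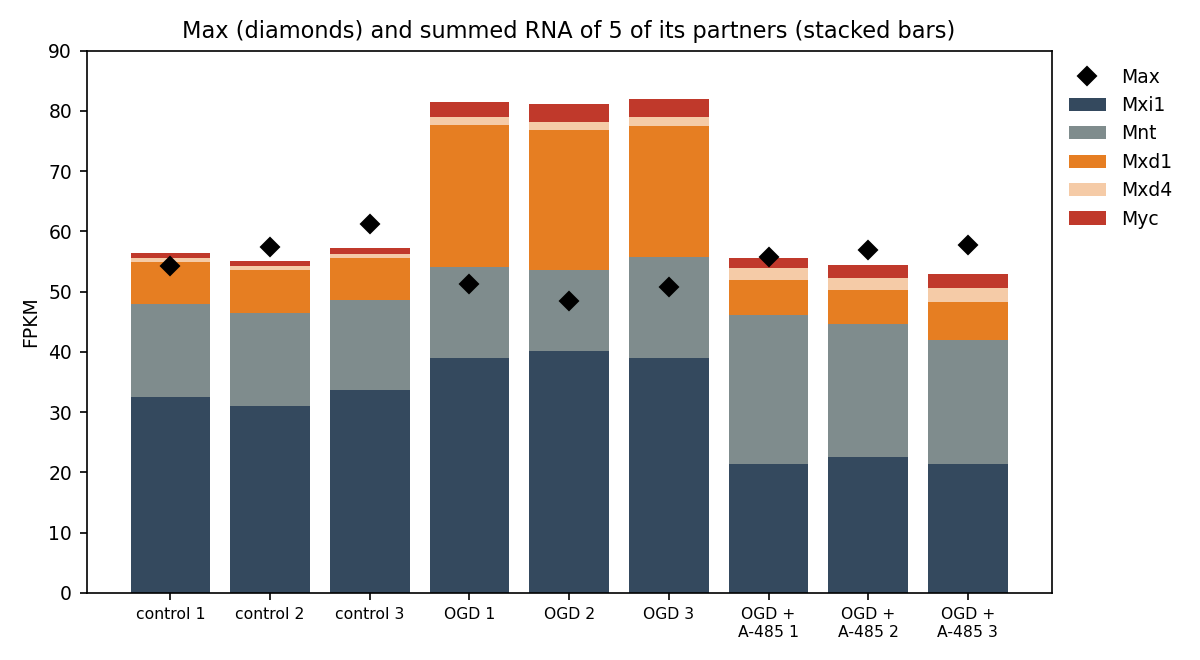
Stacked bars give the level in FPKM of Myc, Mnt, Mxd1, Mxd4 and Mxi1 in each of the 9 libraries, and diamonds give Max. The partners Mga and Mxd3 are not in the bars. The bars reach 81.1 to 81.9 FPKM in OGD, above the Max diamonds, and stay near Max in the other groups.

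The targets of Myc were described on a list of 54 genes that Myc is known to activate, chiefly in ribosome production, nucleotide and polyamine synthesis and the cell cycle, of which 53 were tested. With OGD, while Myc RNA rose, 24 of the 53 fell (45.3%, beside 9.81% of all genes) and 0 rose, with 1 higher by an adjusted p under 0.05. That gene was Odc1, at 583.5 FPKM in control and 764 FPKM in OGD as means (0.39, adjusted p = 0.000301 in limma). The median log2 fold change of the 53 was -0.48. The largest called changes were Utp20 (-1.25), a part of the small ribosomal subunit processome, Grwd1 (-0.99), a ribosome assembly factor, and Apex1 (-0.99), a DNA repair endonuclease. Utp20 stood at 23.4 ± 0.699 FPKM in control, 9.77 ± 0.394 FPKM in OGD and 11.4 ± 0.584 FPKM in OGD + A-485 (SD, n = 3). Imp4, of the same processome, was also among the genes that fell (-0.94).

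With A-485 added to OGD, 5 of the 53 rose (9.43%, beside 12.2% of all genes) and 3 fell (5.66%, beside 13.4%), with a median of 0.12. Odc1, the first enzyme of polyamine synthesis and a textbook Myc target, fell by 1.71 (adjusted p = 5.98e-08 in limma), from 764 ± 8.95 FPKM in OGD to 233 ± 14.7 FPKM. Apex1 rose by 1.03, to 33.3 FPKM beside 32.3 FPKM in control, and Imp4 by 0.82, to 15.1 FPKM beside 16.4 FPKM. Against control, 20 of the 53 were lower and 1 was higher, beside 16.6% and 17.0% of all genes, led by Odc1 (-1.32), Rrp9 (-1.30) of the nucleolar U3 particle and Cad (-1.28), which starts pyrimidine synthesis. Rrp9 and Cad fell with OGD (-0.77 and -0.66) and again with A-485 (-0.53 and -0.62). The E-box was present in 21 of the 59 start windows of these genes, 35.6%.

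Of 8 genes that Myc is known to repress, 6 were tested, and they are mostly inhibitors of cyclin-dependent kinases. With OGD 5 rose and 0 fell, beside 11.2% and 9.81% of all genes, with a median of 1.02. Ndrg1, a stress and hypoxia gene, rose by 1.92, Cdkn1a (p21) by 1.56 and Cdkn1b (p27) by 1.10. Cdkn1a stood at 30.0 ± 1.0 FPKM in control, 88.4 ± 5.10 FPKM in OGD and 53.1 ± 2.42 FPKM in OGD + A-485 (SD, n = 3). With A-485 added 3 fell and 0 rose, beside 13.4% and 12.2% of all genes, with a median of -0.60, namely Cdkn2b (-2.59), Cdkn1c (-1.63) and Cdkn1a (-0.73). Against control 4 were higher and 2 lower, beside 17.0% and 16.6% of all genes, Cdkn2b at -2.22, Cdkn1b at 1.16 and Ndrg1 at 1.46 being the largest. These genes have many other regulators, and the part of Myc in their changes was not tested.

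**Figure D4:**
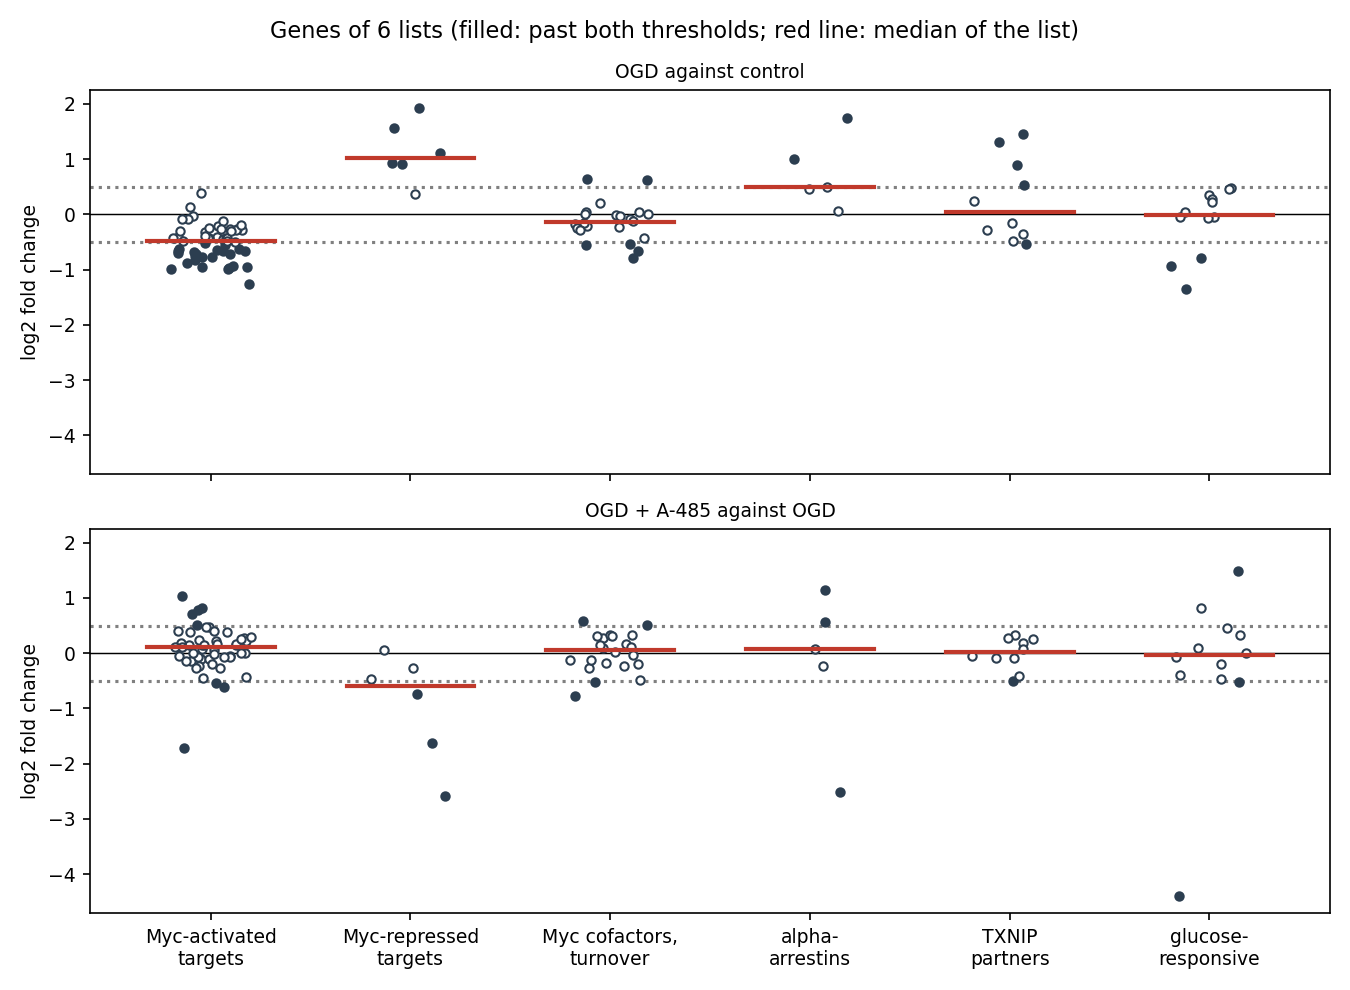
Log2 fold changes on the log2(FPKM + 0.1) scale of the genes of 6 lists of the network, each point a gene, filled where called, with the median of the list as a red line, above for OGD against control and below for OGD + A-485 against OGD. The Myc-activated targets lie mostly under 0 with OGD, median -0.48, and near 0 with A-485 added, median 0.12.

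Cofactors of the network and enzymes of Myc turnover made a list of 22 genes, all tested. With OGD 2 rose (9.09%, beside 11.2% of all genes) and 4 fell (18.2%, beside 9.81%), with a median of -0.13. The count that fell was 2 without OGD replicate 2 and with the neighbours' median removed. Skp2, a ubiquitin ligase subunit that acts on Myc, fell by 0.80, Wdr5, which anchors Myc on chromatin, fell by 0.67, and Pim1, a kinase that works with Myc, rose by 0.63. With A-485 added 2 rose and 2 fell (9.09% each, beside 12.2% and 13.4% of all genes), with a median of 0.06. Only 1 rose without OGD replicate 2, without OGD_A_485 replicate 1 or without OGD_A_485 replicate 3, and under 5 of the other settings, which include quantile normalization, library totals and limma-voom. Zbtb17 (Miz-1), through which Myc represses genes, fell by 0.78, Sin3a, the corepressor of Mxd proteins, fell by 0.52, and Skp2 rose by 0.58. Against control, OGD + A-485 had 2 genes of the list higher and 4 lower (9.09% and 18.2%, beside 17.0% and 16.6% of all genes). Among them Sin3b, the paralogue of Sin3a, was 0.77 higher (adjusted p = 5.64e-06 in limma), while Ruvbl1, an ATPase that binds Myc, was at -0.81. Both were already called with OGD, Sin3b at 0.62 and Ruvbl1 at -0.53. Their steps with A-485 added, 0.16 and -0.28, were not calls.

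The α-arrestin family, to which Txnip and Arrdc4 belong, did not move as a block. Of the 6 genes 5 were tested, and Arrdc5 had at most 1 read. Arrdc3, which sorts membrane receptors for degradation, stood at 0.991 ± 0.0729 FPKM in control, 3.55 ± 0.261 FPKM in OGD and 0.546 ± 0.104 FPKM in OGD + A-485 (SD, n = 3). It rose by 1.74 with OGD and fell by 2.51 with A-485 added (adjusted p = 2.02e-06 in limma), and in the latter step its direction was opposite to that of Txnip and Arrdc4. Arrdc1, which forms vesicles at the plasma membrane, had log2 fold changes of 0.46 with OGD and 0.08 with A-485 added and was called only against control, at 0.54. Arrdc2 was not called in any comparison, with group means of 7.0, 7.28 and 6.13 FPKM.

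Of 11 genes that act with the Txnip protein, 10 were tested, and 4 rose and 1 fell with OGD, beside 11.2% and 9.81% of all genes. The count that fell was 2 without OGD replicate 1 or without OGD replicate 3. Ddit4, a hypoxia-induced inhibitor of mTORC1, rose by 1.45. Slc2a1, the glucose transporter GLUT1 that Txnip removes from the surface, rose by 1.30, from 129 ± 4.0 to 317.5 ± 17.2 FPKM (SD, n = 3), and stood at 237 ± 17.1 FPKM with A-485, a difference of -0.42 that was not a call. Nlrp3, the inflammasome sensor, rose by 0.88. Itch, the ligase that degrades Txnip, rose by 0.53 and Txnrd1, thioredoxin reductase, fell by 0.54, both chosen after their values were seen. With A-485 added, 0 of the 10 rose and 1 fell, Prkaa2, a catalytic subunit of AMPK, by 0.51, although 6 had an adjusted p under 0.05 in limma. Of all genes 12.2% rose and 13.4% fell, and the call of Prkaa2 was lost without OGD replicate 1, without OGD replicate 2 or without OGD_A_485 replicate 1. Thioredoxin itself, Txn1, also chosen after its values were seen, stood at 184, 151 and 142 FPKM as group means and was not called.

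Other genes known to respond to glucose through Mondo family factors formed a list of 19, of which 12 were tested. With OGD 0 rose and 3 fell, beside 11.2% and 9.81% of all genes, the latter being the enzymes of fatty acid synthesis Elovl6 (-1.36), Fasn (-0.93) and Acaca (-0.79), and 1 rose without Ctrl replicate 2 or without OGD replicate 3. With A-485 added, 1 rose and 2 fell, beside 12.2% and 13.4% of all genes, but 3 rose without OGD replicate 3 and 1 fell without OGD_A_485 replicate 3. Klf10, a transcription factor induced by glucose, rose by 1.49, from 3.87 ± 0.133 to 11.04 ± 0.243 FPKM (SD, n = 3). Me1, the cytosolic malic enzyme, fell by 4.39, from 85.4 ± 2.13 to 3.98 ± 0.339 FPKM (adjusted p = 1.17e-09 in limma), and Acaca fell by 0.52. Against control 2 were higher and 4 lower, beside 17.0% and 16.6% of all genes, led by Me1 (-3.94), Elovl6 (-1.76) and Klf10 (1.44). The median of the list was -0.00419 with OGD and -0.04 with A-485 added.

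Across the 9 libraries, the levels most like that of Txnip by Pearson's r on the log2 scale were those of Fxyd5 (0.9992), Aldoc (0.9979) and Msn (0.9979), among 11898 genes averaging 1 FPKM or more. Most like Arrdc4 were Atp6v0d1 (0.9987), Actg1 (0.9984) and Ctsd (0.9975), and most like Myc were Asnsd1 (0.9908), St14 (0.9888) and Rpl3 (0.9875). A value of 0.99 was passed by 85 genes with Txnip, 104 with Arrdc4 and 1 with Myc. Between members the value was 0.923 for Txnip and Arrdc4, 0.994 for Txnip and Mxd4 and 0.814 for Mxd1 and Mxi1. These points share their libraries and groups, and the values are a description.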

How the data were processed

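The 9 RNA libraries of BV2 cells were put into 3 groups by the sample labels. The authors counted reads on genes with featureCounts v1.5.0-p3 (build GRCm38, mm10, per the submitters' processing notes) and deposited FPKM with gene lengths and coordinates. FPKM times gene length gave whole reads (tolerance 0.01) for all values, with library divisors that already held a size-factor normalization. A read per kilobase was worth 0.0618 to 0.0786 FPKM.

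The values log2(FPKM + 0.1) of 16123 genes were fitted with limma 3.58.1 in R 4.3.3 (1 mean per group, trended variance), and p-values were adjusted by Benjamini-Hochberg over all of them. Fold changes are on that scale and understate those of low genes. Other steps used matplotlib 3.10.9, scipy 1.17.1, pandas 2.3.3 and numpy 2.4.6 under Python 3.11.15, and the fit was tested on simulated data. That test required recovery of known changes only for genes with higher mean levels than Myc and Mxd4, so it does not vouch for these members. The members and lists were chosen with earlier results of these data known, so the lists are no independent support. All members are named, and from each other list, per comparison, up to 3 called genes with the largest change and no overlap between groups, with lists of 6 or fewer in full. For Txnip, Arrdc4 and Myc the 3 most correlated genes are named. Replicate numbers gave no sign of pairing. Same-numbered libraries had deviations correlated by -0.0303 on average (-0.125 to 0.0725) and others by 0.0151 (-0.0861 to 0.132). Whether same-numbered cultures were handled together cannot be told from these values. Between replicates the reads differed beyond sampling noise (chi-square per degree of freedom 2.80 to 5.73). Alternatives were other pseudocounts, filters, normalizations and fits, limma-voom on the recovered reads, and each library left out.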

Additional observations from a re-analysis of the deposited data

How the results depend on the processing

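The 30 differences of the members were recomputed under 21 alternatives. Under some alternative, 20 of the 30 changed their call or their sign, and 12 did so under an alternative other than the adjusted p. With a library left out, 5 of the 30 changed their side of the thresholds or their sign. The replicate number as a block changed no call: members called higher with OGD stayed at 4, and the correlations gave no sign of pairing.

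With calls at an adjusted p under 0.05 and no threshold of size, members lower were 2 with OGD, 4 with A-485 added and 3 against control. The same rule called 1 Myc-activated target higher and 45 lower with OGD, and 24 higher and 11 lower with A-485 added. Quantile normalization, library totals and limma-voom each gave 5 Myc-activated targets lower with A-485. With the median of the neighbouring genes removed, members lower were 1 with A-485 added and 0 against control.

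For Myc with A-485 added, limma-voom gave -0.520 and the adjusted p called the value of -0.436. Txnip with A-485 added fell under the threshold with quantile normalization (0.423), library totals (0.493) and limma-voom (0.494). Arrdc4 with OGD passed it with quantile normalization (0.510) and neighbours removed (0.603), was called at 0.492 by the adjusted p, which sets no size, and ran from 0.453 to 0.522 with a library left out.

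Signs turned where the value was near 0. These were Max against control with neighbours removed (0.051) and without Ctrl replicate 3 (-0.063 to 0.023 over the libraries left out), Mnt with OGD under quantile normalization (0.007), neighbours removed (0.063) and without OGD replicate 2 (-0.096 to 0.060), and Mlxip against control with library totals (-0.053) and limma-voom (-0.054). The cause was not tested. The median of all genes between OGD + A-485 and control was 0.0156, and -0.0881 with library totals and -0.0995 with limma-voom. The lowest levels, Myc and Mxd4, rest on the fewest reads.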
